A study of Homo sapiens with 6 samples.

Results

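The genes described here serve the unfolded protein response and the secretory pathway of the endoplasmic reticulum (ER). They are 36 listed genes: ER stress sensors and their transcription factors, chaperones, protein disulfide isomerases, genes of ER-associated degradation, and genes of protein translocation and export. Each was read by the probe set that lists that gene alone and has the highest mean over the 6 arrays. This gave a value for 35 of the 36 genes, out of 18244 genes measured in the same way. TXNDC5, an ER thioredoxin-like protein, had only probe sets shared with another gene and is not analysed here.

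Total RNA came from L428 cells, an established line from human Hodgkin lymphoma, a tumour of B cell origin. The cells received 3 µg of BATF3 siRNA or of a control siRNA by nucleofection and were cultured for 48 h, and there were 3 arrays for each siRNA. BATF3, a transcription factor of the basic leucine zipper family, pairs with JUN proteins on DNA. BATF3 was targeted with 1 siRNA, so effects of that sequence on other genes cannot be told apart from those of BATF3. Both groups share the 1 cell line, the medium and the nucleofection, and cells without siRNA were not analysed here. Whether replicates were separate cultures is not given in the labels. The p-values therefore measure the spread among these samples, and that spread may be technical. The arrays measured RNA from whole cultures, in which fewer cells of a kind and less RNA per cell cannot be told apart.

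The ER folds the proteins that a cell secretes or places in its membranes. When unfolded proteins build up, 3 membrane sensors respond: IRE1 (gene ERN1) splices XBP1 mRNA, PERK (gene EIF2AK3) slows translation and favours ATF4, and ATF6 is cut to release a transcription factor. The spliced XBP1 protein and cut ATF6 then raise chaperone, degradation and secretory genes, a programme best known from plasma cells. Much of this signalling acts on splicing, phosphorylation and cleavage, which an array of total mRNA does not read.

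A well-known target sequence of these factors is the ER stress response element (ERSE), read by ATF6 together with NF-Y. RefSeq promoters (GRCh38.p14) were found for 32 of the 36 genes, all but DERL1, DERL3, PDIA3 and SEC24D. The 250 bases before each start were searched on both strands. The exact ERSE letters, CCAAT and CCACG with any 9 bases between them, were present for 7 of the 32 genes (21.9%), against 0.0916% of all 27305 genes with an entry and 0.0740% of their 35116 promoters. The related element ERSE-II (ATTGG and CCACG with any 1 base between them) was present for 3 of them, HERPUD1, HYOU1 and SDF2L1. The shares were 0.0659% of all genes and 0.0513% of promoters. The 36 genes were listed for their part in this response or in secretion, so the higher shares among them are no independent finding. The ERSE matches are shown because they include both the central chaperone gene HSPA5 and CRELD2, whose groups separated downward. Each is printed 5′ to 3′ on the strand that reads CCAAT first, with the fixed letters in capitals.
HSPA5 (chr9:125241385-125241415, minus strand): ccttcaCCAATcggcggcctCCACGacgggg
HSP90B1 (chr12:103930210-103930240, plus strand): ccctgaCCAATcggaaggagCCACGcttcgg
HSP90B1 (chr12:103930315-103930345, minus strand): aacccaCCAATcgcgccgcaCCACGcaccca
CALR (chr19:12938378-12938408, minus strand): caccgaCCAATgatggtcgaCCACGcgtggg
CANX (chr5:179698772-179698802, plus strand): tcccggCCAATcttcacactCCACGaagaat
PDIA6 (chr2:10812847-10812877, minus strand): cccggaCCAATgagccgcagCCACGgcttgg
XBP1 (chr22:28800597-28800627, minus strand): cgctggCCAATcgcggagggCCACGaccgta
CRELD2 (chr22:49918548-49918578, minus strand): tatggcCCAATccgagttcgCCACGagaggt
The ERSE-II matches are printed for the genes that carry that element in place of the longer one, with the fixed letters in capitals.
HERPUD1 (chr16:56932019-56932041, plus strand): acgccgATTGGgCCACGttggga
HYOU1 (chr11:119057268-119057290, plus strand): gtactcATTGGaCCACGtcccag
HYOU1 (chr11:119057374-119057396, plus strand): cctgggATTGGaCCACGtcacgg
SDF2L1 (chr22:21642108-21642130, minus strand): gttttgATTGGtCCACGcttccg
BATF3 with JUN is known to bind the AP-1 sequence TGANTCA, which 8.06% of all genes and 6.57% of all promoters held. Among the 32 genes only HSPA5 did, 184 bases before its start. Its promoter is printed for that reason, with the ERSE and AP-1 letters in capitals (chr9:125241344-125241593, minus strand).
HSPA5: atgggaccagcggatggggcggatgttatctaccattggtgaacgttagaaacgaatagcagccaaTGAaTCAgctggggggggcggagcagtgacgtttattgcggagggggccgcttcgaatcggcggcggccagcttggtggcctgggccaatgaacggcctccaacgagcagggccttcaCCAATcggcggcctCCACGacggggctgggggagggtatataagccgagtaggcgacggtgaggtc
The letters TGACGTCA (CRE) were also searched, and among the 32 genes only CREB3L2 held them, against 2.03% of all genes. The letters TGACGTGG (UPRE) were found for HYOU1, SSR4 and TXNDC5 (9.38% of the 32 genes, against 0.780% of all genes). These matches describe letters in the reference and are not evidence of binding in L428 cells.

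BATF3 itself read 10.87, 10.76 and 10.69 after BATF3 siRNA and 11.89, 12.08 and 11.94 after control siRNA, on the log2 scale. It was reduced to 0.436 of the control level (limma adjusted p = 0.00673). The log2 change was −1.20. It was −1.16 without BATF3 siRNA replicate 3 (adjusted p = 0.0688), −1.14 without control siRNA replicate 2 (0.0648) and −1.10 with a term for the array background described next (0.306), about as large but no longer called. Background probe sets of high G and C content, with 20 to 25 such bases, stood at 5.92 in the second and 5.98 in the third BATF3 siRNA array, and at 6.46 to 6.49 on the other 4. Of 10 Hodgkin lymphoma markers, all but CCL22 exceeded the highest background probe set on at least 1 array, and TNFRSF8, CCL17 and IRF4 did so on all 6. PAX5 and CD79B did so too, while 5 of 7 measured B cell markers, including MS4A1, CD79A and CD22, and 6 of 8 plasma cell markers lay under that background on every array. All markers of T and NK cells (6), myeloid cells (5) and fibroblasts and epithelium (5) lay under it. The summed T and NK cell markers, each under that background, were slightly higher after BATF3 siRNA (7.23 to 7.45) than after control siRNA (7.12 to 7.14, log2). Of these, NKG7 had the largest change (0.40), and CD8A went the other way (−0.25). The summed Hodgkin lymphoma markers, which include BATF3, were lower after BATF3 siRNA (14.64 to 14.69) than after control siRNA (14.75 to 14.81). The part of either sum in the results below was not tested.

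None of the 35 genes changed at the threshold when BATF3 was reduced. With limma, 0 of 35 passed at an adjusted p under 0.05, where 0.0164% of all genes did, and 0 of 35 had an unadjusted p under 0.05, where 7.15% of all genes did. The smallest adjusted p among them was 0.714, for CRELD2. The 3 arrays of one siRNA lay wholly on one side of the other 3 for 4 genes, or 11.4%, against 12.1% of all genes. HERPUD1, EDEM1 and SEC61B lay above (6.36% of all genes did) and CRELD2 below (5.78%). These shares are near the background, and at the unadjusted threshold the 35 genes fell short of it.

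The changes were small as well as uncalled. On the log2 scale they ran from −0.20 to 0.30, with a median of 0.046 over the 35 genes and of −0.0027 over all genes, and 25 of 35 were positive against 49.0% of all genes. The 35 genes were brighter than all genes (median level 10.04 against 6.63), so these shares compare unlike levels. Among genes at or above the median level, the median change of all genes was 0.0088. The 95% confidence interval of 34 of the 35 changes (97.1%) lay inside a 1.5-fold change in either direction, the exception being DNAJB9. For all genes that share was 94.5%. All 35 lay inside a 2-fold change, as did 99.8% of all genes. The median absolute change was 0.090 for the 35 genes and 0.085 for all genes, so small changes were not particular to them.

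**Figure D1:**
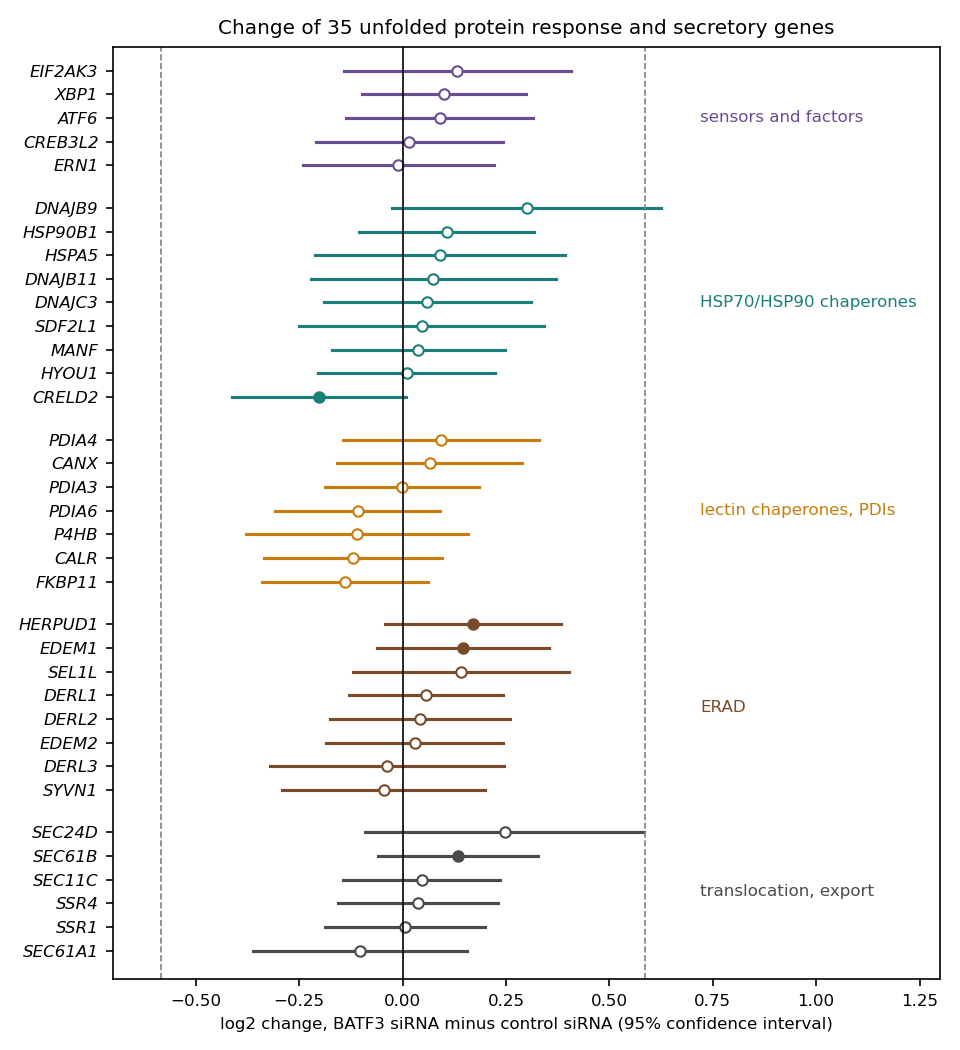
Each point is the log2 change of 1 gene (BATF3 siRNA minus control siRNA, n = 3 arrays each) with its 95% confidence interval, by role; filled points are genes whose groups did not overlap and dashed lines mark 1.5-fold. Every interval includes 0 and only that of DNAJB9 crosses a dashed line.

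The arrays differed in this small shift, and in no single order. The median deviation of the 35 genes from the control mean was 0.0062, 0.047 and 0.069 on BATF3 siRNA arrays 1, 2 and 3, of which the first had the background of the controls. The mean deviation was 0.036, 0.033 and 0.051, with the second array lowest. Genes of ER-associated degradation (medians 0.094, 0.021 and 0.060) and of translocation and export (0.099, 0.047 and 0.023) were highest on the first array. The part of the array background in these values was not tested. A fit with a term for it leaves 1 BATF3 siRNA array against 3 controls, so it repeats the values of that array. In that fit 13 of the 35 genes took the other sign, and over all alternatives 21 did in at least 1, so the signs given below by role are those of the deposited values only. CRELD2, DNAJB9, HERPUD1, EDEM1 and SEC61B kept their sign in every alternative run. So did ATF6, XBP1, CALR, PDIA6, P4HB, FKBP11, SEL1L, DERL1 and SEC11C. For genes whose groups did not overlap, neither leaving out 1 array nor the background term could turn the sign. That those genes kept it is therefore no support for a change.

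The sensors and their transcription factors came first in the pathway and showed no change at the threshold. ERN1, the IRE1 kinase and RNase, read 5.77, 5.72 and 5.78 after BATF3 siRNA and 5.72, 5.95 and 5.63 after control siRNA. The groups overlapped, and each value was lower than the brightest background probe set on the same array, so the size of its change (−0.011, SE 0.10) is uncertain. EIF2AK3, the PERK kinase, read 7.59, 7.82 and 7.83 against 7.72, 7.38 and 7.75, with control siRNA replicate 2 lowest (change 0.13, SE 0.12, limma adjusted p = 0.872). ATF6 read 8.26, 8.22 and 8.26 against 8.30, 8.18 and 7.99 (change 0.090, SE 0.10, limma adjusted p = 0.904). The 3 BATF3 siRNA arrays lay within the span of the controls.

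XBP1, whose mRNA is the substrate of IRE1, read 9.67, 9.71 and 9.83 after BATF3 siRNA and 9.58, 9.64 and 9.68 after control siRNA. Its groups met at BATF3 siRNA replicate 1 and control siRNA replicate 3 (change 0.10, SE 0.088, limma adjusted p = 0.865). XBP1 had 1 probe set, and whether that set tells the spliced from the unspliced form was not examined. CREB3L2, an ER membrane factor of the ATF6 kind linked to secretory capacity, read 8.60, 8.88 and 8.82 against 8.82, 8.72 and 8.71 (change 0.017, SE 0.10). Of its 7 probe sets 4 were negative and 3 positive, from −0.23 to 0.10.

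HSPA5 (BiP) is the HSP70 chaperone of the ER lumen, holds the sensors inactive and is the usual marker of the response. It read 10.98, 11.29 and 11.19 after BATF3 siRNA and 10.92, 11.33 and 10.93 after control siRNA. The highest value of all was control siRNA replicate 2 and the groups overlapped. The change was 0.091 (SE 0.13, 95% confidence interval −0.21 to 0.39, limma adjusted p = 0.927), or 1.07 times the control level. It was 0.23 without control siRNA replicate 2, 0.18 without BATF3 siRNA replicate 1, and 0.019 to 0.028 without control siRNA replicate 1 or 3 or BATF3 siRNA replicate 2. No adjusted p passed in any of these fits. The probe set used showed the smallest change of the 6 that read HSPA5. The other 5 were higher by 0.17 to 0.30, 3 of them at an unadjusted p under 0.05, and none passed after adjustment over all probe sets (smallest adjusted p = 0.644, limma). Probe sets of 1 gene can share probes and RNA, so they are not replicates.

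Among the partners of HSPA5, DNAJB9 had the largest change of the 35 genes when all 6 arrays were used. It is a J-domain protein that recruits HSPA5 to IRE1 and to misfolded proteins. It read 8.86, 8.50 and 8.60 against 8.54, 8.06 and 8.46, with replicate 2 lowest under both siRNAs, and the groups overlapped by the narrow gap between BATF3 siRNA replicate 2 and control siRNA replicate 1. The change was 0.30 (SE 0.14, 95% confidence interval −0.025 to 0.62, limma adjusted p = 0.734), and its other two probe sets were at 0.15 and 0.18. It was 0.15 without control siRNA replicate 2 and 0.20 without BATF3 siRNA replicate 1, and in both of these fits the change of SEC24D was larger (0.23 and 0.43). DNAJB9 and SEC24D are given array by array because of the size of their changes, a choice made after their values were seen.

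CRELD2, a small ER protein induced by ER stress, had the smallest p of the 35 genes. It read 9.87, 9.64 and 9.69 after BATF3 siRNA and 9.95, 9.96 and 9.90 after control siRNA. All 3 BATF3 siRNA arrays lay below all 3 controls, with replicates 2 and 3, of the lower background, the lowest. The level was 0.869 of the control (log2 change −0.20, SE 0.093, 95% confidence interval −0.41 to 0.0074, limma adjusted p = 0.714). With the background term the change was −0.065. For CRELD2, HERPUD1, EDEM1 and SEC61B alike the exact two-sided permutation p was 0.1, the lowest value that a design of 3 against 3 can reach.

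The other chaperone genes differed little. HSP90B1, the ER form of HSP90, was at 0.11 (SE 0.094) with all 7 probe sets positive. The J-domain proteins DNAJB11 and DNAJC3, SDF2L1, which works with DNAJB11, and MANF, a secreted stress protein, lay between 0.038 and 0.075. HYOU1, the nucleotide exchange factor of HSPA5, was at 0.0098 on its brightest probe set, while 7 of its 9 probe sets were negative, down to −0.20. In all 8 of 9 genes of this role were positive, none at an unadjusted p under 0.05.

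**Figure D2:**
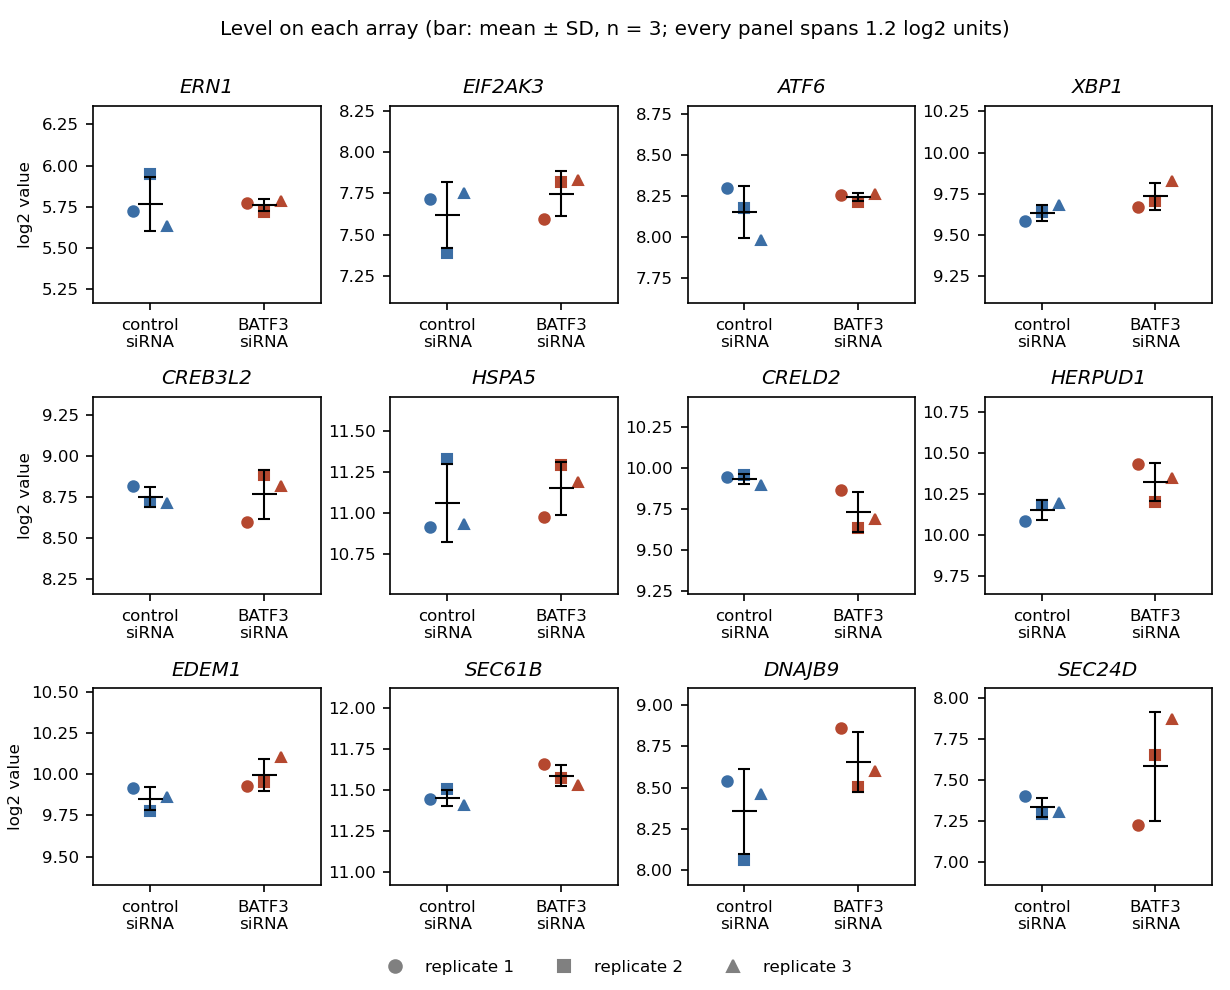
Log2 values on each array for 12 genes, control siRNA in blue and BATF3 siRNA in red, with a symbol for each replicate number and the mean ± SD (n = 3) in black; values of different panels come from different probe sets and are not comparable. Groups separate for CRELD2, HERPUD1, EDEM1 and SEC61B, and HSPA5 is highest in replicate 2 of both siRNAs.

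Lectin chaperones and disulfide isomerases, with which FKBP11 was grouped, were the one role with more negative than positive changes, 5 against 2, with a median of −0.11. Their median deviation from the control mean was −0.040 and −0.16 on BATF3 siRNA arrays 1 and 2 and 0.025 on array 3. FKBP11, a peptidyl-prolyl isomerase of secretory cells, stood at 9.98 ± 0.086 against 10.11 ± 0.052 (log2, SD, n = 3 each; change −0.14, SE 0.089). CALR (calreticulin) was at −0.12, P4HB at −0.11 and PDIA6 at −0.11, both of the last being protein disulfide isomerases. With the background term these 4 changes were −0.040, −0.052, −0.092 and −0.0063. All probe sets of these 4 genes were negative: 2 of 2 for FKBP11, 2 of 2 for CALR, 6 of 6 for P4HB and 3 of 3 for PDIA6. CANX (calnexin, the membrane partner of calreticulin) was at 0.066, PDIA4 at 0.093 and PDIA3 at −0.0020. PDIA3, counted as negative, took the other sign in 5 of 16 alternatives. None of the 7 had an unadjusted p under 0.05, and their limma adjusted p ran from 0.816 to 0.999. Whether this role differed from the other chaperones was not tested.

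In ER-associated degradation, which returns misfolded proteins to the cytosol for the proteasome, 6 of 8 genes were positive. HERPUD1, a scaffold of the HRD1 ubiquitin ligase, read 10.43, 10.20 and 10.35 after BATF3 siRNA and 10.09, 10.19 and 10.19 after control siRNA. The groups did not overlap, but BATF3 siRNA replicate 2 and control siRNA replicate 3 lay close together. The change was 0.17 (SE 0.094, limma adjusted p = 0.787). Each of the 4 probe sets of HERPUD1 was positive, from 0.11 to 0.37. EDEM1, a lectin that marks glycoproteins for degradation, read 9.93, 9.95 and 10.11 against 9.92, 9.78 and 9.86. The groups were again separate, by a narrow gap between replicates 1 (change 0.15, SE 0.092, limma adjusted p = 0.815), and 4 of 5 probe sets were positive.

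SEL1L, the adaptor of the ligase, was at 0.14 with 4 of 4 probe sets positive, and SYVN1, the ligase HRD1 itself, at −0.046. The derlins, which form part of the exit channel, were at 0.057 (DERL1), 0.042 (DERL2) and −0.037 (DERL3), and DERL3 lay under the highest background probe set on all 6 arrays. EDEM2, a partner of EDEM1 in trimming glycans, was at 0.029. For all 8 genes the limma adjusted p was 0.787 or higher.

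Among genes of translocation and export, 5 of 6 were positive. SEC61B, a small subunit of the translocation channel, read 11.65, 11.57 and 11.53 after BATF3 siRNA and 11.44, 11.51 and 11.41 after control siRNA. Its groups did not overlap (change 0.13, SE 0.086, limma adjusted p = 0.816), and it had 1 probe set. The pore subunit SEC61A1 was at −0.10. SSR1 and SSR4 of the translocon-associated complex and SEC11C, a signal peptidase subunit, lay between 0.0061 and 0.046. SEC24D, a cargo adaptor of the COPII coat, read 7.23, 7.65 and 7.87 against 7.40, 7.30 and 7.31. The 2 high values were those of the arrays with the lower background, BATF3 siRNA replicate 1 lay below all controls, and the change was 0.25 (SE 0.15, limma adjusted p = 0.810). It was 0.43 without BATF3 siRNA replicate 1 (limma unadjusted p = 0.0040), 0.10 without BATF3 siRNA replicate 3 and −0.11 with the background term. The 3 probe sets ran from −0.23 to 0.25.

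**Figure D3:**
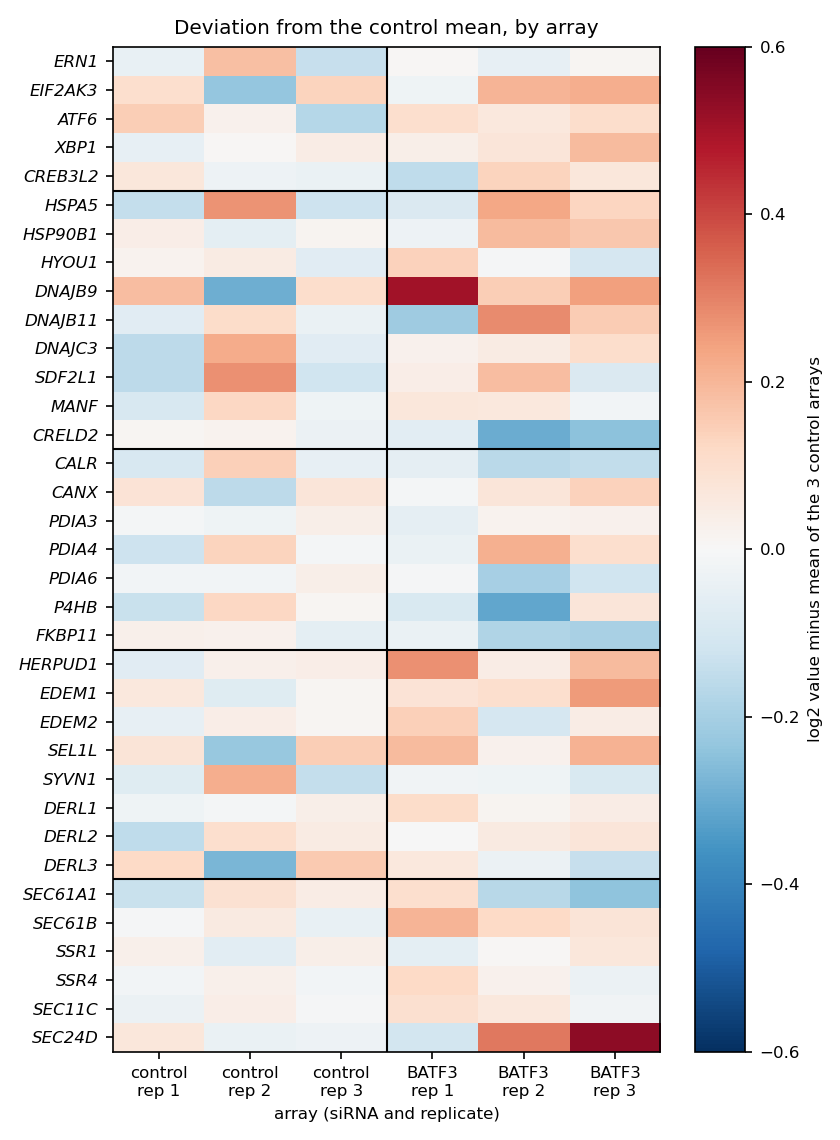
Colour gives the log2 value on each array minus the mean of the 3 control arrays, for 35 genes in rows ordered by role (horizontal lines) and 6 arrays in columns. Control replicate 2 differs from the other controls in HSPA5, DNAJC3, SDF2L1 and DNAJB9, and every role holds both colours in the BATF3 columns.

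The probe sets not chosen gave no call either. The 35 genes had 119 single-gene probe sets, of which 77 were positive and 42 negative, with a median of 0.038. Of these 8 had an unadjusted p under 0.05 in limma, 7 higher and 1 lower, or 6.72% against 7.16% of all probe sets, and 0 passed after adjustment. Of the 28 genes with several probe sets, 10 had only positive changes, 6 only negative and 12 both.

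**Figure D4:**
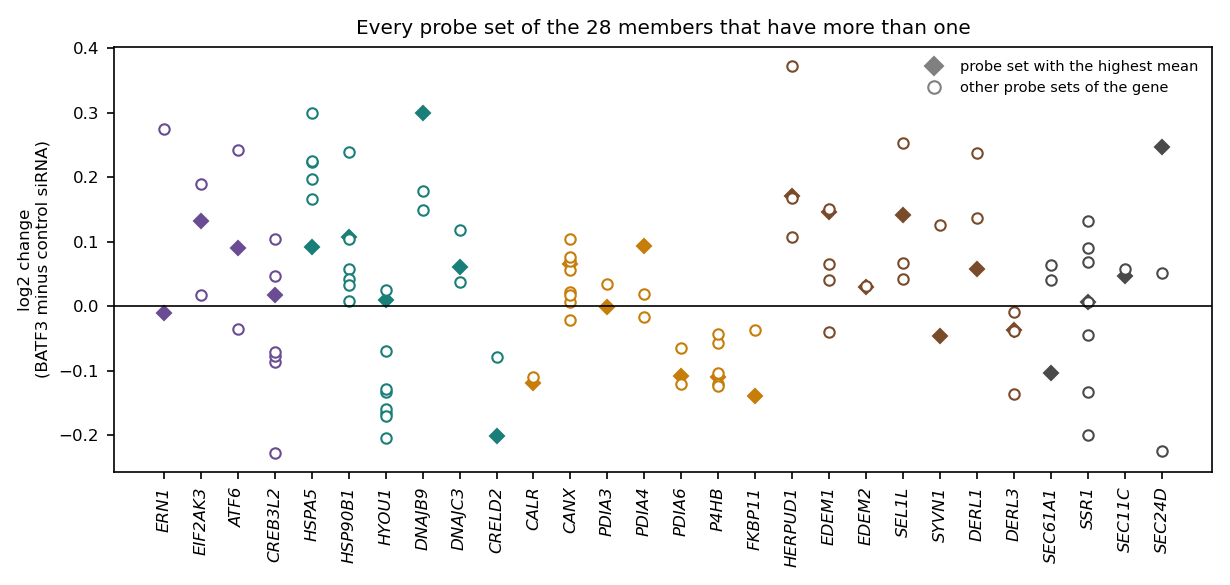
Log2 change (BATF3 siRNA minus control siRNA) of every probe set of the 28 genes with more than 1; filled diamonds are the probe sets with the highest mean and open circles the others. For HSPA5 all 6 lie above 0 and for P4HB all 6 below, while those of CREB3L2, SSR1 and SEC24D fall on both sides.

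Genes that carry an ERSE did not share a direction: 4 of the 7 were positive and 3 negative, from −0.20 (CRELD2) to 0.11 (HSP90B1). The 3 genes with an ERSE-II were at 0.17 (HERPUD1), 0.046 (SDF2L1) and 0.0098 (HYOU1). The 10 genes with either element had a median change of 0.056, against 0.042 for the 21 measured genes whose promoters held neither. HSPA5, the gene with an AP-1 match, was among the overlapping genes.

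By Pearson correlation over the 6 arrays, the genes most like HSPA5 were PDIA4 (r = 0.93), DNAJC3 (0.86) and DNAJB11 (0.82). Their Spearman rho was 0.89, 0.94 and 0.66, and by that measure SDF2L1 (0.94), DERL2 (0.89) and MANF (0.83) stood above DNAJB11. The 6 points share the cell line and the normalization, and both siRNAs enter. Control siRNA replicate 2 and BATF3 siRNA replicate 2 were the arrays farthest from the median of HSPA5. Over the 4 others r was 0.897 for PDIA4, 0.87 for DNAJC3 and 0.75 for DNAJB11, but 0.14 for SDF2L1, which had 0.81 over all 6. EDEM1 (0.964), XBP1 (0.942) and, narrowly, SEC24D were then above PDIA4, so which genes were most like HSPA5 rests on those arrays. PDIA4 read 10.27, 10.52 and 10.41 after BATF3 siRNA and 10.18, 10.44 and 10.30 after control siRNA. As for HSPA5, replicate 2 was the highest array under each siRNA and replicate 1 the lowest.

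The other genes of the pathway were read from 7 lists chosen by function, with 140 of 145 genes measured. None of the 140 passed at an adjusted p under 0.05 in limma, and 10 had an unadjusted p under 0.05 (7.14%, against 7.15% of all genes), 8 higher and 2 lower. Of those 10, 5 came from the PERK arm and ATF4 output, where 5 of 13 genes had an unadjusted p under 0.05 and a higher level (3.73% of all genes did). That the ATF4 targets were higher was known from these arrays when the list was drawn up, so the count is no independent evidence. SESN2, a stress-induced regulator of mTORC1, stood at 8.90 ± 0.115 against 8.47 ± 0.025 (SD, n = 3 each; change 0.43, limma adjusted p = 0.365). DDIT3, the CHOP factor of the PERK arm, stood at 6.99 ± 0.17 against 6.56 ± 0.11 (change 0.44, limma adjusted p = 0.448). The other 3 of the 5 were CEBPB at 0.44, TRIB3 at 0.34 and CHAC1 at 0.34. The groups did not overlap for 7 of the 13 genes, all with BATF3 siRNA above (6.36% of all genes). ATF4 mRNA was at 0.077 and PPP1R15A, which restores translation, at 0.20. The list had a median of 0.19, beside 0.046 for the 35 genes, and the difference between them was not tested.

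The remaining lists had medians from −0.0052 to 0.051. In COPII and ER-Golgi transport 2 of 26 genes had an unadjusted p under 0.05. These were SURF4, a cargo receptor, at 10.09 ± 0.027 against 9.69 ± 0.089 (SD, n = 3 each; change 0.40, limma adjusted p = 0.402), and SEC24A, a cargo adaptor, at 0.26. The translocon and signal peptidase list had 0 of 20, with TRAM1 at 0.14 and SEC62 at −0.14, and the other degradation genes 0 of 21, with MAN1B1 at −0.30 and ERLEC1 at 0.16. N-glycosylation had 1 of 21, with MLEC at −0.22 and MAGT1 at 0.16. The other folding enzymes had 1 of 24, with TMX3 at −0.28 and FKBP14 at 0.25. The other membrane factors had 1 of 15, with MBTPS2, a protease that cuts ATF6, at 0.27 and CREB3L1 at −0.23.

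**Figure D5:**
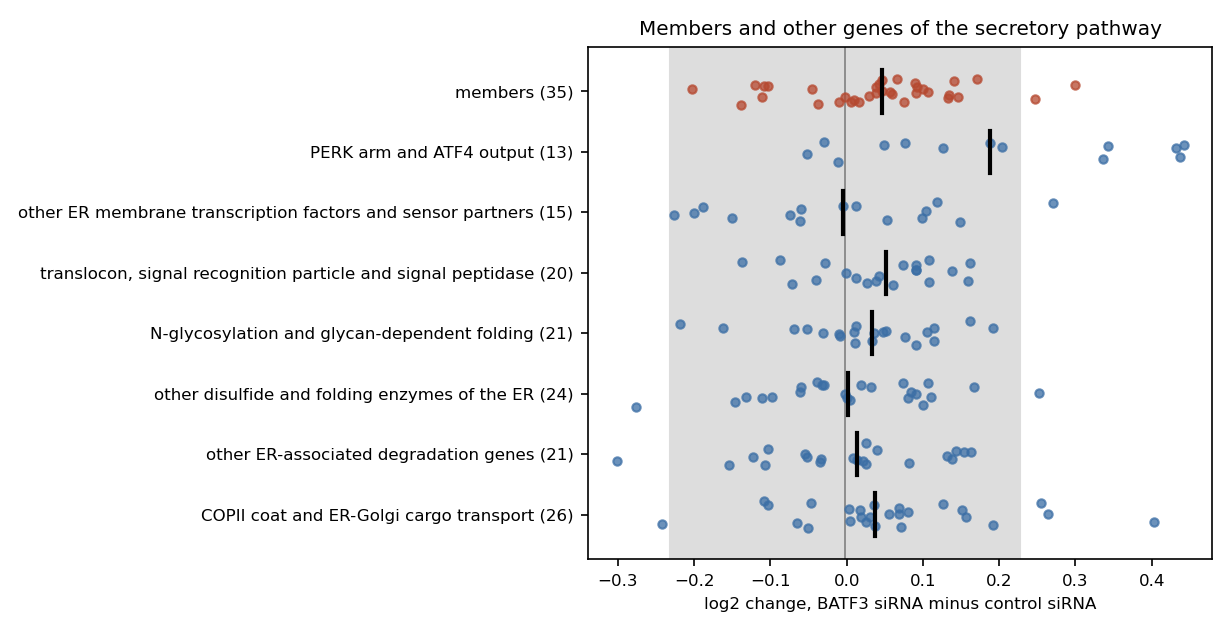
Each point is the log2 change (BATF3 siRNA minus control siRNA) of 1 gene, for the 35 genes in red and for 7 other lists of the pathway in blue; black bars are medians, the thin line is the median of all genes and the grey band spans the 5th to 95th percentile of all genes (−0.23 to 0.23). Most points lie in the band, and 5 genes of the PERK list lie to its right.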

How the data were processed

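Biotinylated cRNA was made from total RNA for Affymetrix PrimeView arrays. The authors deposited 1 log2 value per probe set and array; the log2 base was inferred from the values, whose array medians lay between 6.24 and 6.33. The tool affy is listed in the submitters' processing notes. How background, normalization and summarization were handled is not stated in the labels or files used. Values were used as deposited. Of 49495 probe sets, 45278 listed a single gene in the platform annotation, with symbols updated through RefSeq. All 18244 genes were fitted with limma 3.58.1 in R 4.3.3 (two-sided, Benjamini-Hochberg over all genes, 4 residual degrees of freedom), with no covariate, after the fit had been tested on simulated data. The number of arrays limits the precision (median SE 0.107). Every listed gene was named, with each array given for sensors, HSPA5, genes at an unadjusted p under 0.05 and genes with separate groups. From each pathway list the 2 genes with the smallest p were named. ATF4, PPP1R15A, CEBPB, TRIB3, CHAC1, DNAJB9 and SEC24D got values after their results were seen. PDIA4 was given array by array because of its correlation with HSPA5 in these data. The genes, lists and alternatives, including the array background term, were chosen with earlier results of these data known. No set test was run. The alternatives covered normalization, dim genes, probe sets, array weights, the prior, a replicate block, array background and leaving out each array.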

Additional observations from a re-analysis of the deposited data

How the results depend on the processing

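The 35 genes had 0 calls under each of the 16 alternatives, with 0 to 3 of them at an unadjusted p under 0.05. Over all genes the main setting called 3. The count was 9 for genes at or above the median level, 5 with the most variable probe set, 25 with array weights, 12 with an intensity trend and a robust prior, and 0 with the array background term (1011 at an unadjusted p under 0.05 in limma). Leaving out 1 array gave 0 to 2 calls. The median change of the 35 genes was 0.0062 with the background term and 0.021 to 0.062 with 1 array left out. That term leaves 1 BATF3 siRNA array. It turned the sign of 13 of the 35 genes, among them EIF2AK3 to −0.025, CREB3L2 to −0.15, HSPA5 to −0.085, DNAJB11 to −0.21, SEC61A1 to 0.10 and ERN1 to 0.0062. ERN1, near 0 and dim, was also positive under quantile normalization (0.029), median centring (0.014), cyclic loess (0.019), the mean of probe sets (0.13), the most variable probe set (0.27) and array weights (0.086). With 1 array left out it ran from −0.080 to 0.080. CREB3L2 was at −0.042 for the mean of probe sets and from −0.042 to 0.10 with 1 array left out. HSPA5 was at 0.055 under quantile normalization, 0.071 under cyclic loess, 0.12 under median centring and 0.17 with the most variable probe set. It was at 0.20 for the mean of probe sets and 0.22 with array weights. In those fits, in order, its limma unadjusted p was 0.043 and 0.048, and its adjusted p 0.626 and 0.272. The array weights were 3.85 for control siRNA replicate 3 and 0.38 for control siRNA replicate 2, where HSPA5 was highest. The other arrays had weights of 0.55 to 1.27, so the weighted fit, with its 25 calls, leans on 1 control array. Leaving out 1 array turned 15 of the 35, and 21 turned under at least 1 alternative. The cause of these turns was not tested. ERN1 and DERL3 could not be tested among genes at or above the median level. With the replicate block, the count over all genes was 3 and that of the 35 genes 0. In that fit the change of DNAJB9 stayed at 0.30, with an SE of 0.10 against 0.14 without the block. Its limma unadjusted p was 0.019 against 0.066, and its adjusted p was 0.582. The SE was also smaller with the block for HSPA5 (0.103 against 0.134) and DNAJB11 (0.108 against 0.131), among others. It was larger for HERPUD1 and CRELD2 (0.105 and 0.100, against 0.094 and 0.093), among others. Deviations of same-numbered arrays correlated at 0.029, 0.15 and −0.025, and those of differently numbered arrays at −0.10 to 0.097. The value for replicate 2 of both siRNAs was the highest of these. Whether the numbers pair the samples was not settled, and the main fit took them as unpaired. The arrays' background limits what can be said of the dim genes ERN1 and DERL3, and of CHAC1, FKBP14 and CREB3L1 in the other lists.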
